A study of Mus musculus with 6 samples.

Results

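Macrophages and stromal cells of the heart secrete growth factors and matrix proteins that act on neighbouring cells. 10 genes for such trophic and repair factors were followed here, chosen by name: the growth factor genes Igf1, Pdgfa, Pdgfb, Pdgfc, Vegfa, Vegfb and Tgfb1, and the matrix and galectin genes Spp1, Fn1 and Lgals3. They were chosen with earlier results of these data known. Each matched 1 of the 55487 Ensembl gene identifiers counted, and all 10 passed the filter on low counts, with 181 to 76941 reads per library. The KO libraries were 3 pools of hearts from mice labelled Egfr mKO, in which Egfr is deleted in myeloid cells, and the WT libraries were 3 pools from mice labelled Egfr f/f, all on C57BL/6. The sources used here give neither age, sex nor the promoter that drives the deletion. Each library came from cells of 5 or 6 pooled hearts, enriched on beads against Cd11b, the myeloid integrin chain encoded by Itgam. The pool is the unit of replication, and p-values therefore refer to variation among pools of animals.

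The libraries held 25199667 to 27485129 reads in genes for KO and 17780707 to 27104205 for WT. Egfr, the targeted receptor gene, was at 18.5, 15.9 and 17.4 CPM (counts scaled to library size with TMM factors) in KO pools, against 54.7, 43.0 and 44.7 CPM in WT pools. Lyz2, the lysozyme gene of macrophages and neutrophils, was at 17.4, 19.2 and 19.3 CPM in KO pools, against 6700.2, 4074 and 4327 CPM in WT pools. The KO mean of Lyz2 was 0.37% of the WT mean. Itgam was counted in every pool, with 149, 176 and 120.0 CPM in KO and 141, 87.9 and 84.4 CPM in WT. Markers of other heart cells were present as well. The summed level of 14 resident macrophage markers was 16614, 15580 and 17171 CPM in KO pools, against 16581, 8872 and 10999 CPM in WT pools. The summed level of 15 endothelial markers was 1671, 1635 and 2138 CPM in KO, against 2878, 3189 and 4725 CPM in WT. For 15 fibroblast markers it was 5789, 5033 and 4185 CPM in KO, against 4912, 10169 and 15832 CPM in WT. In macrophage and fibroblast markers WT replicate 1 lay among the KO pools. In such bulk samples, fewer cells of a type and less RNA per cell cannot be told apart.

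The factors belong to well-known signalling systems. Insulin-like growth factor signals through the receptor tyrosine kinase Igf1r and is held in the tissue by binding proteins. Platelet-derived growth factors signal to fibroblasts and mural cells through Pdgfra and Pdgfrb, and vascular endothelial growth factors signal to endothelium through Kdr and Flt1. Transforming growth factor beta is secreted in a latent form, is freed at the cell surface and matrix, and signals through a kinase receptor pair to Smad proteins. Osteopontin (Spp1), fibronectin (Fn1) and the galectin encoded by Lgals3 are read by integrins, Cd44 or cell surface glycans, and are abundant products of macrophages in injured tissue.

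No factor differed between KO and WT past the threshold (edgeR quasi-likelihood test, Benjamini-Hochberg adjusted p under 0.05 over 15707 genes). Among all genes tested 0.0127% were called, which were Egfr and Lyz2, both lower in KO. DESeq2 called 0 factors too, where it called 1.13% of genes higher and 4.39% lower. Without adjustment, 1 factor had p under 0.05, Pdgfc, where 15.3% of all genes did. For all 10 factors the KO and WT pools overlapped, while 19.7% of all genes tested had groups that did not overlap. The fitted log2 fold change was positive for 8 factors and negative for 2, with a median of 0.14, beside a median of 0.01 and 50.8% positive over all genes. The 95% interval of the change lay within a 2-fold rise or fall for 8 factors, and its upper bound passed 2-fold for Spp1 and Fn1.

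**Figure D1:**
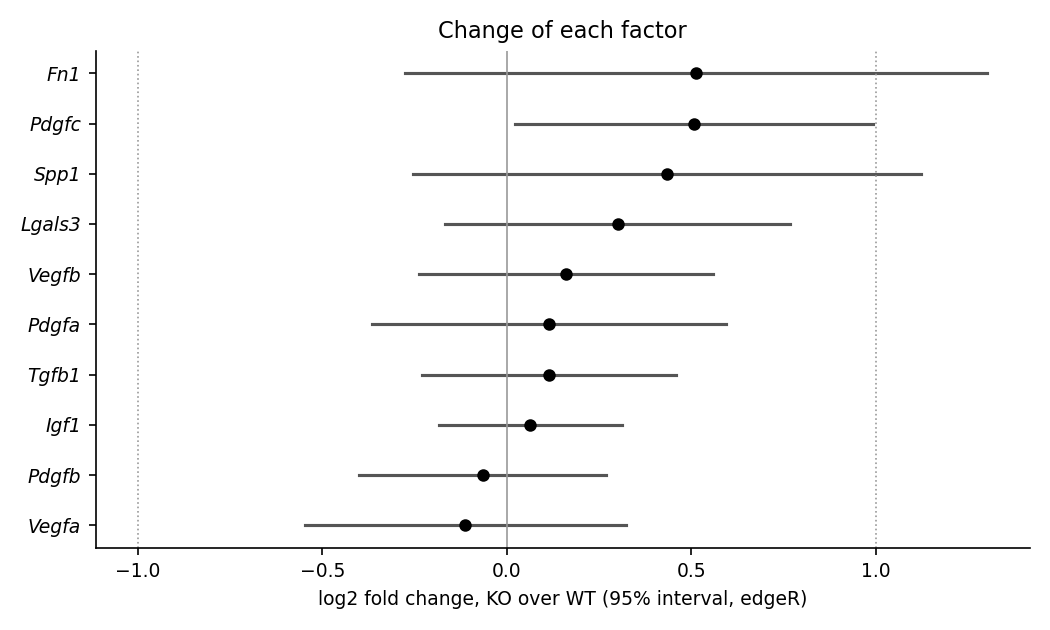
Fitted log2 fold change of each factor, KO over WT, with its 95% interval from edgeR (3 pools per group); the solid line marks no change and the dotted lines a 2-fold fall and rise. Pdgfc (0.02 to 0.99) has an interval that leaves out 0, and those of Fn1 and Spp1 are the widest.

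Igf1, the insulin-like growth factor gene that supports muscle and stromal cell survival, hardly varied between pools. It was at 127, 122 and 114 CPM in KO pools and at 125, 106 and 115 CPM in WT pools. All 6 pools lay within a 1.19-fold span, the narrowest of the 10 factors, and the groups overlapped. Its KO-over-WT log2 fold change was 0.06 (SE 0.11, adjusted p = 0.818, edgeR), with a 95% interval from 0.88-fold to 1.24-fold. Igf1 (ENSMUSG00000020053) lies on chromosome 10 at 87858265 to 87937042 of GRCm38, plus strand.

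The 3 platelet-derived growth factor genes gave different pictures. Pdgfa, whose product acts on Pdgfra of mesenchymal cells, was at 27.3, 22.3 and 36.6 CPM in KO and at 30.4, 21.6 and 27.5 CPM in WT. Its highest pool was KO replicate 3 and its lowest WT replicate 2, and the fitted change of 0.11 on the log2 scale (SE 0.21, adjusted p = 0.834, edgeR) turned negative without KO replicate 3 (-0.11) or WT replicate 2 (-0.02). Of the 3119 exonic bases of Pdgfa (ENSMUSG00000025856, chromosome 5, 138976014 to 138997370, minus strand), 813 are shared with the antisense gene 6330403L08Rik. That gene had 156 to 301 reads per library, and although the library kit keeps strand per the labels, the strand setting of the counting is not given, so reads of the pair may not be told apart.

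Pdgfb, the endothelial signal that draws pericytes to vessels, was at 106, 114 and 108 CPM in KO pools and at 119.9, 91.65 and 132 CPM in WT pools. The KO pools lay close together, with a coefficient of variation of 3.80%, inside a wider WT spread of 18.1%. Its change on the log2 scale was -0.07 (SE 0.14, adjusted p = 0.866, edgeR), with a 95% interval from 0.76-fold to 1.20-fold, and it was 0.05 without WT replicate 3. In the same pools the log2 fold changes of 15 of 15 endothelial markers were negative (median -1.08). With all 6 pools and the filter on low counts edgeR called none of the 15, and DESeq2 called 14, all lower in KO. DESeq2 called 4.39% of all genes lower. The part of these markers in the Pdgfb values was not tested. Pdgfb (ENSMUSG00000000489) lies on chromosome 15 at 79995874 to 80014977, minus strand.

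Pdgfc, a ligand of Pdgfra that is secreted in a latent form and freed by proteases such as tissue plasminogen activator, came nearest to a difference. It was at 18.5, 15.9 and 18.2 CPM in KO pools, against 16.1, 9.44 and 11.4 CPM in WT pools. WT replicate 1 lay just above KO replicate 2, and the other WT pools were the lowest. Fitted over all pools, the change on the log2 scale was 0.51 (SE 0.21, adjusted p = 0.307, edgeR), a 1.42-fold level with a 95% interval from 1.02-fold to 1.99-fold. Without WT replicate 1 it passed, with 0.76 (adjusted p = 0.0402, edgeR), in a fit that called 2.33% of genes higher and 5.97% lower. In the same pools the log2 fold changes of all 14 resident macrophage markers were positive (median 0.46), and their summed level in WT replicate 1 reached that of the KO pools. Of the 14, 0 were called in edgeR with all 6 pools and the filter on low counts, and 0 in DESeq2. The part of these markers in the Pdgfc values was not tested. Pdgfc (ENSMUSG00000028019) lies on chromosome 3 at 81036416 to 81214040, plus strand.

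Per kilobase of exon, Pdgfb supplied most of the summed level of the 3 genes, with 67.3%, 72.7% and 62.9% in KO pools and 69.0%, 71.5% and 74.2% in WT pools. The share of Pdgfc was 9.61%, 8.29% and 8.65% in KO, against 7.59%, 6.02% and 5.22% in WT. Every KO pool lay above every WT pool in that share, which was looked at after the levels were known and is given with no test.

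Vegfa, the main growth signal for blood vessels and a target of hypoxia, was at 77.3, 54.4 and 80.9 CPM in KO and at 63.8, 74.6 and 91.5 CPM in WT. KO replicate 2 was the lowest pool and WT replicate 3 the highest, with the other pools between. The fitted change of -0.11 on the log2 scale (SE 0.19, adjusted p = 0.818, edgeR) was 0.05 without KO replicate 2 and 0.04 without WT replicate 3. Vegfb, a ligand of Flt1 expressed widely in heart, was at 18.4, 15.7 and 21.5 CPM in KO and at 18.2, 13.9 and 17.6 CPM in WT. Its change on the log2 scale was 0.16 (SE 0.17, adjusted p = 0.706, edgeR). Per kilobase, Vegfa made up 61.1%, 56.5% and 58.5% of the sum of both genes in KO pools and 56.8%, 66.8% and 66.1% in WT pools, so the groups overlapped. Vegfa (ENSMUSG00000023951) lies on chromosome 17 at 46016993 to 46032369 and Vegfb (ENSMUSG00000024962) on chromosome 19 at 6982473 to 6987651, both on the minus strand.

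Tgfb1, the isoform of transforming growth factor beta made by leukocytes, was at 306, 278 and 317 CPM in KO pools and at 325, 236 and 272 CPM in WT pools. WT replicate 1 was the highest pool and WT replicate 2 the lowest, so the KO pools lay inside the WT spread. On the log2 scale the change was 0.11 (SE 0.15, adjusted p = 0.764, edgeR), with a 95% interval from 0.85-fold to 1.37-fold. Tgfb1 (ENSMUSG00000002603) lies on chromosome 7 at 25687002 to 25705077, plus strand.

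Spp1, which encodes the secreted glycoprotein osteopontin, was set apart by 1 pool. It was at 26.3, 12.7 and 14.9 CPM in KO pools and at 17.0, 11.6 and 11.3 CPM in WT pools. KO replicate 1 was highest, WT replicate 1 came next, and the other 4 pools lay within 11.3 to 14.9 CPM. The fitted change of 0.43 on the log2 scale (SE 0.30, adjusted p = 0.528, edgeR) was 0.06 without KO replicate 1. The summed level of 11 neutrophil markers was also highest in KO replicate 1 and WT replicate 1, with 3053, 838 and 872 CPM in KO and 2491, 1239 and 663 CPM in WT. Of the 11 genes, 8 were highest in KO replicate 1, among them S100a9 with 1003, 205 and 226 CPM in KO and 769, 328 and 173 CPM in WT. The other 3, the granule protein genes Camp, Ltf and Ngp, were highest in WT replicate 1, and Ngp was at 29.9, 17.6 and 31.7 CPM in KO and at 201, 93.0 and 16.2 CPM in WT. S100a9 and the granule genes are named after their values were seen. The part of these markers in the Spp1 values was not tested. Spp1 (ENSMUSG00000029304) lies on chromosome 5 at 104435118 to 104441050, plus strand. It shares 309 of 1648 exonic bases with Gm42793 on the same strand, a gene with 0 to 15 reads per library. Reads in the shared bases may have been set aside as ambiguous between these genes, and their number is not known.

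Fn1, which encodes the matrix glycoprotein fibronectin, had the highest group means per kilobase of exon of the 10 and the widest span between pools (2.62-fold). It took 0.12% to 0.31% of all gene reads in a library. Its level was 1815, 3022 and 1209 CPM in KO pools and 1749, 1151 and 1333 CPM in WT pools. KO replicate 2 was the highest, and KO replicate 3 lay below WT replicates 1 and 3, so the groups overlapped. The fitted change of 0.51 on the log2 scale (SE 0.34, adjusted p = 0.515, edgeR) was 0.10 without KO replicate 2. A list of 8 genes of serous cavity macrophages, a cell type known for fibronectin expression in mice, was added after the Fn1 values had been seen. Its summed level was 553, 1036 and 313 CPM in KO and 269.7, 235 and 319 CPM in WT, and 4 of the 8 genes were highest in KO replicate 2. Among them was the lipoxygenase gene Alox15, with 131, 343 and 52.2 CPM in KO and 32.4, 22.9 and 34.3 CPM in WT. Gata6, the transcription factor that defines those cells, was at 11.4, 17.6 and 12.4 CPM in KO and at 12.1, 24.7 and 33.4 CPM in WT. Their part in the Fn1 values was not tested. Fn1 (ENSMUSG00000026193) lies on chromosome 1 at 71585520 to 71653200, minus strand.

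Lgals3, which encodes a galectin used as a marker of activated macrophages, was at 257, 221 and 266 CPM in KO pools, against 267, 162 and 174 CPM in WT pools. WT replicate 1 was the highest pool by a narrow margin, and the other WT pools were the lowest. On the log2 scale the change was 0.30 (SE 0.20, adjusted p = 0.520, edgeR), and without WT replicate 1 it passed with 0.57 (adjusted p = 0.0444, edgeR). That fit called 2.33% of all genes higher and 5.97% lower in KO. Without WT replicate 2 the change was 0.16, and without WT replicate 3 it was 0.21. WT replicates 2 and 3 were the lowest pools here as for Pdgfc and for the summed resident macrophage markers, whose part in the Lgals3 values was not tested. Lgals3 (ENSMUSG00000050335) lies on chromosome 14 at 47367751 to 47386160, plus strand.

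**Figure D2:**
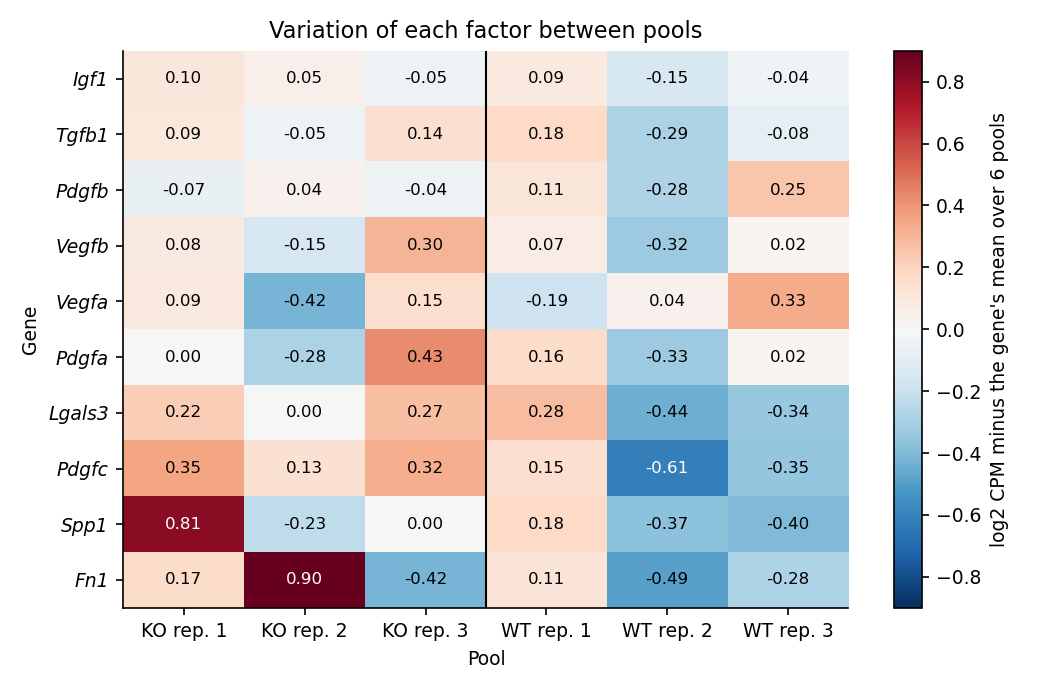
Log2 CPM of each factor in each pool after subtraction of the gene's mean over the 6 pools, red above and blue below the mean, KO pools left of the line and WT pools right of it. Single pools stand out for Fn1 (0.90 in KO replicate 2) and Spp1 (0.81 in KO replicate 1), and WT replicate 2 is the lowest pool for 8 of the 10 factors.

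WT replicate 2, the shallowest library, was the lowest pool for 8 of the 10 factors, all but Vegfa and Spp1. It also had the lowest summed resident macrophage markers. The share of all genes that were lowest in WT replicate 2 was not counted. The summed level of 9 T cell markers was 161, 98.9 and 250 CPM in KO and 55.2, 520 and 50.6 CPM in WT. Of the 9, 8 were highest in WT replicate 2. For 5 erythroid markers the sum was 36.2, 59.3 and 84.7 CPM in KO and 1876, 75.5 and 142 CPM in WT. All 5 were highest in WT replicate 1. The part of depth, or of macrophage, T cell or erythroid content, in the factor values was not tested.

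The levels of the 10 factors spanned a wide range, compared as CPM per kilobase of exon. Fn1 was at 155, 259 and 103 in KO and at 149.7, 98.5 and 114 in WT. Lgals3 was at 138, 119 and 143 in KO and at 144, 87.5 and 93.6 in WT. These 2 changed places in KO replicate 3 and did not differ beyond their spread. Tgfb1 followed with 59.6 ± 4.0 in KO and 55.0 ± 8.90 in WT (SD, n = 3 each), and Pdgfb with 26.3 ± 0.999 in KO and 27.5 ± 4.97 in WT. Their ranks, 3 for Tgfb1 and 4 for Pdgfb, were the same in every pool. Vegfa averaged 16.5 ± 3.35 in KO and 17.9 ± 3.26 in WT and had rank 5 in every pool.

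Below them Igf1, Vegfb, Pdgfa and Spp1 lay close together and exchanged ranks between pools. In KO pools their means ran from 9.22 for Pdgfa to 12.2 for Igf1, and in WT pools from 8.06 for Spp1 to 11.7 for Igf1. Pdgfc was the lowest in every pool, with 3.45 ± 0.28 in KO and 2.42 ± 0.68 in WT.

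**Figure D3:**
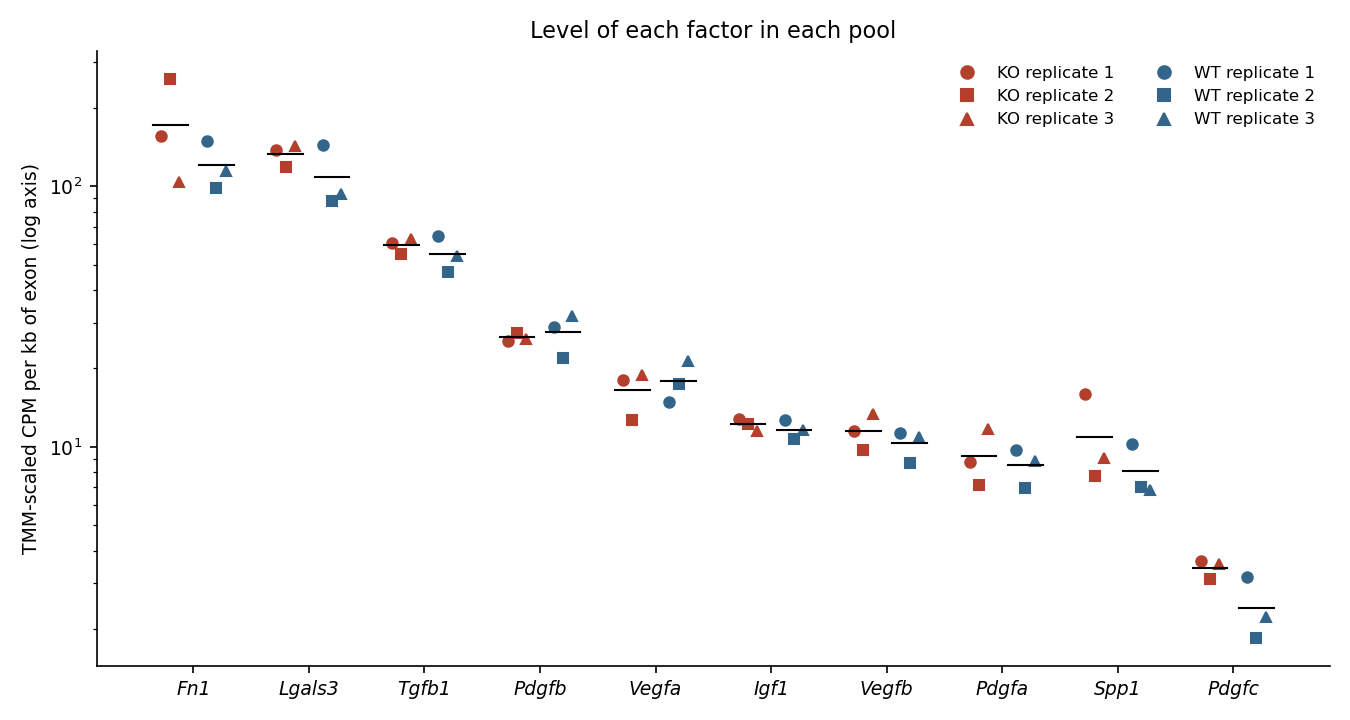
Level of each factor in each pool as TMM-scaled CPM per kilobase of exon on a log axis, KO pools (red) left of WT pools (blue), with black bars at the group means. Fn1 and Lgals3 lead, Pdgfc is lowest in all pools, and KO and WT points overlap for every factor.

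Among factors, pools varied alike for Pdgfa and Vegfb, whose log2 levels, centred over the 6 pools, had a root mean square difference of 0.09. Next came Vegfb and Tgfb1 (0.10), Igf1 and Tgfb1 (0.11), and Pdgfc and Lgals3 (0.12). Fn1 and Vegfa were least alike, with 0.69. The same measure over 9261 named genes with a mean of at least 10 CPM gave the 3 genes nearest to each factor, a description over 6 pools. Its median over those genes ran from 0.18 for Igf1 to 0.49 for Fn1, so distances of different factors are not on a common scale. Nearest to Pdgfc were Lgmn, Ctsb and Lrrc25 (0.04 each), and nearest to Lgals3 were Ubtd1 (0.03), Tmem189 and Metrnl (0.04 each). For Spp1 they were Cd300lb, Grina and Gpt2 (0.09 each), and for Fn1 Engase (0.14), Maf (0.18) and Tifab (0.19). For Igf1 they were Ascc2, Hgs and Anxa2 (0.03 each), and for Tgfb1 Rab7 (0.02), Rpl37 and Rtn4 (0.03 each). Nearest to Pdgfa were Zbtb21, Sde2 (0.06 each) and Eif1a (0.07), and nearest to Pdgfb were Wars (0.04), Phka1 and Gaa (0.05 each). For Vegfa they were Dnajb4 (0.05), Dusp8 and Trip10 (0.10 each), and for Vegfb B4galt3 (0.03), Wbp2 and Phf23 (0.04 each).

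Receptors and other genes of the same pathways had mostly negative log2 fold changes. Of 123 such genes listed, 121 were tested, and 91 were lower and 30 higher in fitted value, with a median log2 fold change of -0.49. None passed the threshold in edgeR with all 6 pools and the filter on low counts. DESeq2 gave an adjusted p for 120 of them and called 24 (20%) lower and 0 higher in KO, beside the 4.39% lower and 1.13% higher among all genes. Without adjustment, 46 with p under 0.05 were lower and 4 higher in KO, where 10.6% of all genes were lower and 4.77% higher. The lists were chosen with earlier results of these data known, so these shares are not an independent test. The genes with the smallest p-values within each list, and the receptors of the factors, are given here as values. The marker lists of vessel and connective tissue cells had median log2 fold changes below 0 in the same pools (-1.08 for endothelial, -0.91 for mural and -1.11 for fibroblast markers). Kdr, Flt1, Eng, Pdgfrb, Pdgfra, Dcn and Postn stand in both a marker list and a pathway list, so these values are not independent. The part of the marked cell types in the pathway values was not tested.

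In the insulin-like growth factor list, all 15 genes tested were negative, with a median of -0.89 and 0 called. The binding protein gene Igfbp5 was at 144, 119 and 133 CPM in KO pools, against 191, 235 and 328 CPM in WT pools, a change of -0.93 on the log2 scale (SE 0.20, adjusted p = 0.180, edgeR). Igf2r, the clearance receptor for the related factor Igf2, had -0.95, the growth hormone receptor gene Ghr -0.89 and the binding protein gene Igfbp3 -0.89. KO pools lay below all WT pools for Igfbp5, Igf2r and Ghr. The same held for 5 of the 15 genes tested in this list, beside 1592 of 15707 over all genes. The signalling receptor Igf1r was at 59.4, 43.2 and 36.3 CPM in KO and at 61.5, 65.2 and 52.6 CPM in WT, which overlapped (-0.37, SE 0.19, adjusted p = 0.394, edgeR).

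In the platelet-derived growth factor list, 10 of 11 genes were negative, with a median of -0.44 and 0 called. Pdgfrb, the receptor on mural cells, was at 69.9, 69.1 and 81.4 CPM in KO pools, against 99.9, 138 and 204 CPM in WT pools (-1.003, SE 0.24, adjusted p = 0.185, edgeR). Pdgfra, the fibroblast receptor, was at 41.4, 46.6 and 32.4 CPM in KO and at 40.8, 97.3 and 126 CPM in WT (-1.13, SE 0.37, adjusted p = 0.235, edgeR). Plat, which encodes tissue plasminogen activator, was at 45.1, 28.2 and 44.6 CPM in KO and at 61.2, 89.1 and 113 CPM in WT (-1.16, SE 0.26, adjusted p = 0.180, edgeR). The KO pools lay below all WT pools for Pdgfrb and Plat, while WT replicate 1 lay among the KO pools for Pdgfra. In this list 4 of 11 genes had all KO pools below all WT pools, beside 1592 of 15707 over all genes. Pdgfrl had -1.18.

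In the vascular endothelial growth factor list, 11 of 12 genes were negative, with a median of -0.91 and 0 called. The endothelial receptor Kdr was at 101, 149 and 139.9 CPM in KO pools, against 247, 316.5 and 436 CPM in WT pools (-1.36, SE 0.24, adjusted p = 0.152, edgeR). Flt1 was at 135, 139.8 and 183 CPM in KO, against 253, 319.7 and 419 CPM in WT (-1.12, SE 0.21, adjusted p = 0.158, edgeR). The ligand gene Pgf had -1.07 and Epas1, a hypoxia-responsive transcription factor of endothelium, -0.97. In all 4 genes the KO pools were the lowest 3, as in 9 of the 12 genes of the list. Over all genes this held for 1592 of 15707. The co-receptor Nrp1, which also stands in the platelet-derived growth factor list, had -0.31 (SE 0.15, adjusted p = 0.367, edgeR).

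In the transforming growth factor beta list, 19 of 27 genes were negative, with a median of -0.19 and 0 called. The co-receptors Tgfbr3 (-0.95, SE 0.19) and Eng (-0.70, SE 0.22), the latent factor binding protein gene Ltbp4 (-0.95, SE 0.31) and the inhibitory Smad6 (-0.54, SE 0.20) had the smallest p-values, with edgeR adjusted p from 0.173 to 0.266. The signalling receptors were nearer to 0. Tgfbr2 was at 488, 459 and 409.8 CPM in KO and at 443, 351 and 420.1 CPM in WT (0.16, SE 0.14, adjusted p = 0.643, edgeR). Tgfbr1 was at 135, 114 and 107 CPM in KO and at 145, 126 and 117 CPM in WT (-0.12, SE 0.13, adjusted p = 0.715, edgeR).

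Receptors and relatives of osteopontin, fibronectin and galectins had a median of -0.03, with 14 of 22 genes negative and 0 called. The matrix genes Sparc (-1.13, SE 0.29) and Vcan (-1.16, SE 0.33) and the integrin chain Itgb3 (-0.53, SE 0.16) were on the lower side. Lgals3bp, which encodes a secreted binding partner of galectins, was at 371, 308 and 331 CPM in KO pools, against 267, 212 and 265 CPM in WT pools, so the KO pools were the highest 3 (0.44, SE 0.14, adjusted p = 0.234, edgeR). In this list the KO pools were the highest 3 for 2 of 22 genes, beside 1507 of 15707 over all genes. The osteopontin receptor Cd44 was at 497, 443 and 459.7 CPM in KO and at 549, 414 and 333 CPM in WT (0.11, SE 0.19). Among integrin chains that bind fibronectin or osteopontin, the change on the log2 scale was -0.12 for Itga5 (SE 0.27), -0.0036 for Itga9 (SE 0.15), 0.0022 for Itgb1 (SE 0.14) and -0.19 for Itgav (SE 0.11). It was -0.92 for Itga8 (SE 0.31, adjusted p = 0.243, edgeR), a chain named here after its values were seen. The sign for Itga9 and Itgb1 changed with the scaling, filter or test used, and those for Cd44 and Itga5 when single libraries were left out.

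Of 39 other trophic and repair factors, 26 were negative and 13 positive, with a median of -0.54 and 0 called. The stromal chemokine gene Cxcl12 was at 94.3, 142 and 111 CPM in KO pools, against 174, 242 and 318 CPM in WT pools (-1.08, SE 0.24, adjusted p = 0.180, edgeR). The vascular peptide gene Apln had -0.996 (SE 0.30) and Bmp6, a bone morphogenetic protein of endothelium, -0.77 (SE 0.24). Fgf9, a fibroblast growth factor gene, was at 2.37, 1.85 and 2.25 CPM in KO pools, against 1.04, 0.89 and 1.26 CPM in WT pools, a change of 1.02 on the log2 scale (SE 0.30, adjusted p = 0.226, edgeR).

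**Figure D4:**
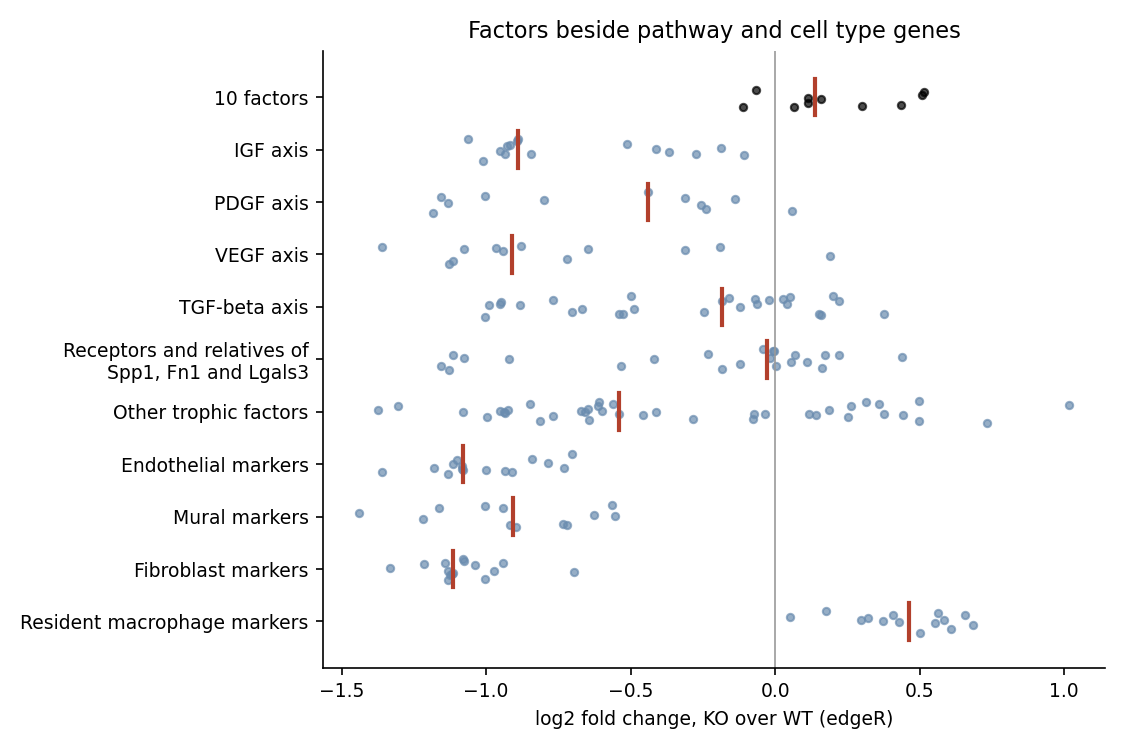
Log2 fold change, KO over WT, of the 10 factors (black), of genes of their pathways and of cell type markers (blue, 1 point per gene), with a red bar at each median. A gene that stands in more than 1 list has a point in each. The factors lie between -0.11 and 0.51, while the endothelial, mural and fibroblast markers all lie below 0 and the resident macrophage markers all lie above 0.

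For 9 of the 10 factors the level was set against that of a receptor they are known to bind, as the ratio of CPM per kilobase. Lgals3, whose product binds glycans on many proteins, was left out. The pairs were set after the levels had been seen, and their ratios are given with no test. In 3 of the 9 pairs every KO pool lay above every WT pool. How often ratios of other gene pairs do so was not counted, and among single genes tested 19.7% had groups that did not overlap. Vegfa over Kdr was 1.61, 0.77 and 1.22 in KO pools, against 0.54, 0.50 and 0.44 in WT pools. Vegfb over Flt1 was 1.15, 0.94 and 0.99 in KO, against 0.60, 0.36 and 0.35 in WT. Pdgfb over Pdgfrb was 2.00, 2.18 and 1.75 in KO, against 1.58, 0.87 and 0.85 in WT. In these 3 pairs the levels of the factor overlapped between groups, while the receptor was at its lowest 3 levels in the KO pools.

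The other 6 ratios overlapped. Pdgfc over Pdgfra was 0.88, 0.67 and 1.10 in KO and 0.78, 0.19 and 0.18 in WT, with WT replicate 1 among the KO pools. Pdgfa over Pdgfra likewise had WT replicate 1 among the KO pools, with 2.12, 1.54 and 3.63 in KO and 2.40, 0.71 and 0.70 in WT. Igf1 over Igf1r was 3.61, 4.78 and 5.32 in KO and 3.46, 2.77 and 3.69 in WT, with KO replicate 1 just below WT replicate 3. Spp1 over Cd44 was 0.22, 0.12 and 0.13 in KO and 0.13, 0.12 and 0.14 in WT, so only KO replicate 1 lay outside the WT range. Tgfb1 over Tgfbr2 was nearly level, with 1.02, 0.98 and 1.26 in KO and 1.19, 1.09 and 1.05 in WT. Fn1 over Itga5 was 2.45, 6.74 and 1.41 in KO and 1.87, 2.06 and 1.80 in WT, so KO replicate 2 stood apart here as well.

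**Figure D5:**
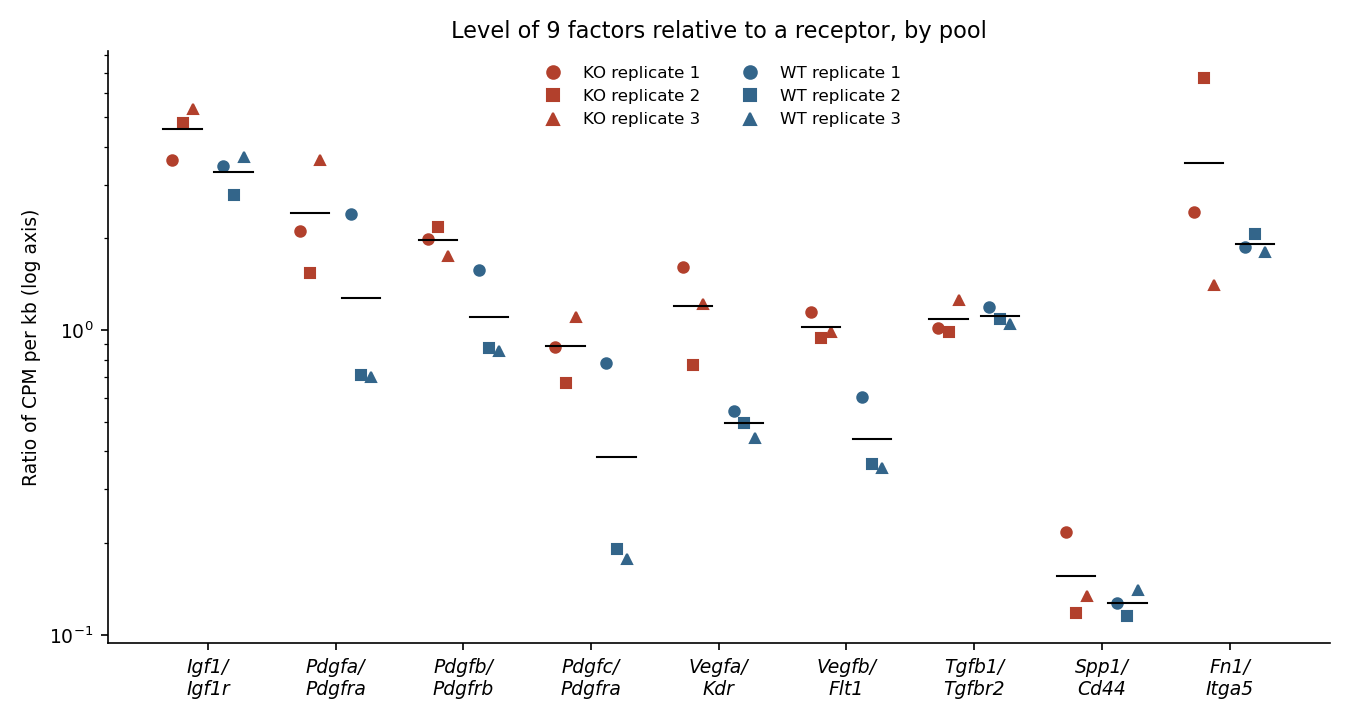
Ratio of 9 of the 10 factors to a receptor they bind, in CPM per kilobase on a log axis, KO pools (red) left of WT pools (blue), with black bars at the group means. KO pools lie above all WT pools for Pdgfb over Pdgfrb, Vegfa over Kdr and Vegfb over Flt1, and overlap them in the other 6 pairs.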

How the data were processed

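The authors deposited raw read counts, as whole numbers per Ensembl gene in 1 table per library. The submitters' processing notes name STAR, HTSeq, DESeq2 and GRCm38, and no source used here gives their versions, the annotation release or the strand setting. The 5 counters that name no gene (5.90% to 8.62% of reads outside genes, 1.49% to 1.72% ambiguous, 7.58% to 8.67% aligned to several places, 0 in the other two) were left out.

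Of 55487 identifiers, 55141 had a symbol. Coordinates and exon lengths are from GENCODE M21. KO was compared with WT in edgeR 4.0.16 (R 4.3.3): filterByExpr with minimum count 10 (15707 genes), TMM, quasi-likelihood F test, two-sided, adjusted by Benjamini-Hochberg over all genes at 0.05. The SE was taken as the absolute log2 fold change divided by the root of F. The 95% intervals use the fit's total degrees of freedom (7.80 for each factor), which join residual and prior degrees of freedom. Log2 CPM had a prior count of 2. Tested on counts simulated for this comparison (15707 genes), the fit found 36 of 98 true 2-fold changes and 97 of 99 true 4-fold changes. It also called 5 unchanged genes. Replicates differed beyond counting noise (chi-square over its degrees of freedom, 34.7 to 76.5).

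Named pathway genes are, per list, up to 4 with the smallest p-values at a mean CPM of at least 1, plus receptors of the factors. The factors and lists were chosen with earlier results of these data known. Alternatives were DESeq2 1.42.0, limma-voom (limma 3.58.1), other scalings and filters, the replicate number as a block, and each library left out. Figures were drawn with matplotlib 3.10.9.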

Additional observations from a re-analysis of the deposited data

How the results depend on the processing

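All 70 values of the factors under DESeq2, limma-voom, RLE or no scaling, no filter, a mean CPM of at least 5 or the replicate block kept the direction and none was called. The number of factors called was 0 in edgeR and 0 to 2 higher when 1 library was left out. The 2 were Pdgfc and Lgals3 without WT replicate 1, in a fit that called 2.33% of all genes higher and 5.97% lower. Over all genes, edgeR called 0 higher and 2 lower, DESeq2 170 and 661, edgeR with no filter 139 and 643, limma-voom 1 lower, and fits leaving out 1 library 0 to 376 higher and 1 to 962 lower. The cause was not tested. The replicate block called 2 higher and 1 lower, and none of the factors; same-numbered pools did not deviate together (correlations 0.10, -0.16 and 0.01), so the numbers were not taken as pairs.

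No pathway gene was called in edgeR with TMM, all 6 pools and the filter on low counts. Genes lower in KO under DESeq2, edgeR with no filter, and with 1 library left out (highest values all without WT replicate 1) were 5, 6 and 0 to 7 in the IGF list, 4, 4 and 0 to 5 in the PDGF list, 6, 6 and 0 to 6 in the VEGF list, 4, 2 and 0 to 5 in the TGF-beta list, 4, 4 and 0 to 5 among receptors and relatives of osteopontin, fibronectin and galectins, and 2, 4 and 0 to 8 among other trophic factors. These lists held 16, 11, 12, 28, 22 and 39 genes, in that order. Over all genes DESeq2 called 4.39% lower, the fit without WT replicate 1 5.97%, and edgeR with no filter 643 of 29010. Leaving out 1 library gave 0 to 1 higher in the TGF-beta list and 0 to 3 among other trophic factors. The highest values were again without WT replicate 1, where 2.33% of all genes were called higher. The log2 fold change reversed for Itga9 with limma-voom (0.0222) and the replicate block (0.0156), and for Itgb1 with RLE scaling (-0.0038), no scaling (-0.0408) and a mean CPM of at least 5 (-0.0231). With 1 library left out it ranged from -0.11 to 0.27 for Pdgfa, -0.21 to 0.0517 for Pdgfb, -0.23 to 0.05001 for Vegfa, -0.0421 to 0.33 for Cd44, -0.33 to 0.11 for Itga5, -0.16 to 0.0948 for Itga9 and -0.0325 to 0.0624 for Itgb1.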
